A study of Mus musculus with 8 samples.

Results

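The genes of the mouse major histocompatibility complex (MHC) and of antigen presentation were compared between 4 colon tumors and 4 normal colon samples. Members were the array probes whose gene name in the scanner files begins with H2-, together with the probes of B2m, Tap1, Tap2, Tapbp, Cd74, Ciita, Cd1d1, Calr, Canx and Pdia3. They came to 73 of the 41174 probes and carried 46 of the array's 27745 gene names. Of these, 42 probes were class I, 19 were class II, 10 were for peptide loading, and 2 (H2-Ke2 and H2-Ke6) belong to genes that lie in the locus and present no antigen.

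The tumors were colon adenomas of mice labelled Tcf4Het ApcHet, heterozygous for Tcf4 and for Apc. The normals were colon of mice labelled TCF4WT ApcHet, wild type for Tcf4 and also heterozygous for Apc. All mice were adult C57BL/6, and the protocol names the Apc allele as ApcMin and the distal 2.5 cm of colon as the source, so the normals too came from mice with a mutant Apc copy. Tcf4 here is Tcf7l2, a DNA-binding partner of beta-catenin, and tumor state and Tcf4 genotype cannot be told apart because every tumor and no normal was Tcf4Het. The samples are bulk tissue, in which fewer cells of a type and less RNA per cell cannot be told apart.

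Class I molecules carry peptides from inside the cell to CD8+ T cells. They consist of a heavy chain, encoded by H2-K1, H2-D1 and the genes of the Q, T and M regions, and of the shared light chain beta-2-microglobulin (B2m). The transporter Tap1-Tap2, tapasin (Tapbp), calreticulin (Calr), calnexin (Canx) and Pdia3 load the peptide in the endoplasmic reticulum. Class II molecules carry peptides from endosomes to CD4+ T cells, are found mainly on dendritic cells, macrophages and B cells, and can be induced by interferon gamma on gut epithelium. Ciita is the coactivator that class II genes require, and Cd74 is the invariant chain that guards their peptide groove.

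Values are the authors' log2 values, quantile-normalised, with a median of 8.51 in every sample, and differences are tumor minus normal on that log2 scale with their SE. A probe was tested where it reached 5.59, the level taken as the detection limit, in at least 4 of 8 samples. By limma with Benjamini-Hochberg adjustment over the 31871 probes tested, 4285 (13.4%) passed the adjusted p of 0.05, of which 1791 (5.62%) were higher and 2494 (7.83%) lower in the tumors. The genotyped gene Tcf7l2 was read on 1 of its 3 tested probes, A_52_P566741. It was 12.99, 12.70, 12.33 and 13.20 in tumors 1 to 4 and 14.42, 14.85, 14.19 and 14.79 in normals 1 to 4. The difference was -1.75 ± 0.24 (adjusted p = 0.0145). Apc, on 1 of its 6 tested probes (A_51_P273378), was 11.56 ± 0.24 in the tumors and 11.92 ± 0.19 in the normals (SD, n = 4 each, adjusted p = 0.179). Colonocyte markers were present in all 8 samples, with list means of 13.57 to 15.59 in the tumors and 16.81 to 17.01 in the normals, and 4 of the 5 fell in the tumors. Markers of small intestine had list means of 8.33 to 10.58 in the tumors and 9.11 to 11.91 in the normals.

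The identity of the arrays is in doubt. Of the 8 columns of the value table, 4 matched a scanner file in rank order, and among these only tumor 1 matched the file of its own sample. Column tumor 2 matched the file of normal 4, column normal 1 that of normal 2 and column normal 2 that of normal 3. The other 4 columns matched no file. The 4 scanner files that match no column, filed under tumors 2, 3 and 4 and normal 1, held small intestine markers at 3.07 to 5.59 above the array's 75th percentile (log2, mean of 6 genes), and in the 4 matched files these lay at -3.04 to -0.69. All results below use the value table and its own labels. One normal stood apart. Normal 3 correlated with the tumors at 0.946 to 0.967 and with the other normals at 0.857 to 0.936 (Pearson, over all tested probes with no empty cell). Leaving it out gave 16474 calls (51.7%) in place of 4285, while leaving out tumor 3 or normal 4 gave 1 or 35. Results are given with all 8 samples, and also without normal 3 where a call depends on it.

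Of the 73 members 64 were tested and 6 passed the test, 2 higher and 4 lower in the tumors, which is 9.38% against 13.4% of all probes. The 9 that were not tested were H2-M9, H2-M10.1, H2-M10.3, H2-M10.4, H2-M10.5, H2-M10.6, H2-M11 and H2-Ea, each below the detection limit in all 8 samples, and 1 of the 2 probes of H2-Eb2, which reached the limit in 3. The 35 class I probes tested had a median difference of -0.42, the 17 class II probes one of 0.52 and the 10 loading probes one of -0.05, beside 0.05 over all probes tested. Without normal 3 these medians were -0.50, 0.30 and -0.20, beside 0.04. The scan slide is known for 4 columns, tumor 1 and normal 1 on slide 1 and tumor 2 and normal 2 on slide 2, through the files they match, so both arrays of slide 2 were filed as normals. Within slide 1 the class I median was -0.42 and the class II median 0.64, and within slide 2 they were -0.76 and -0.03.

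**Figure D1:**
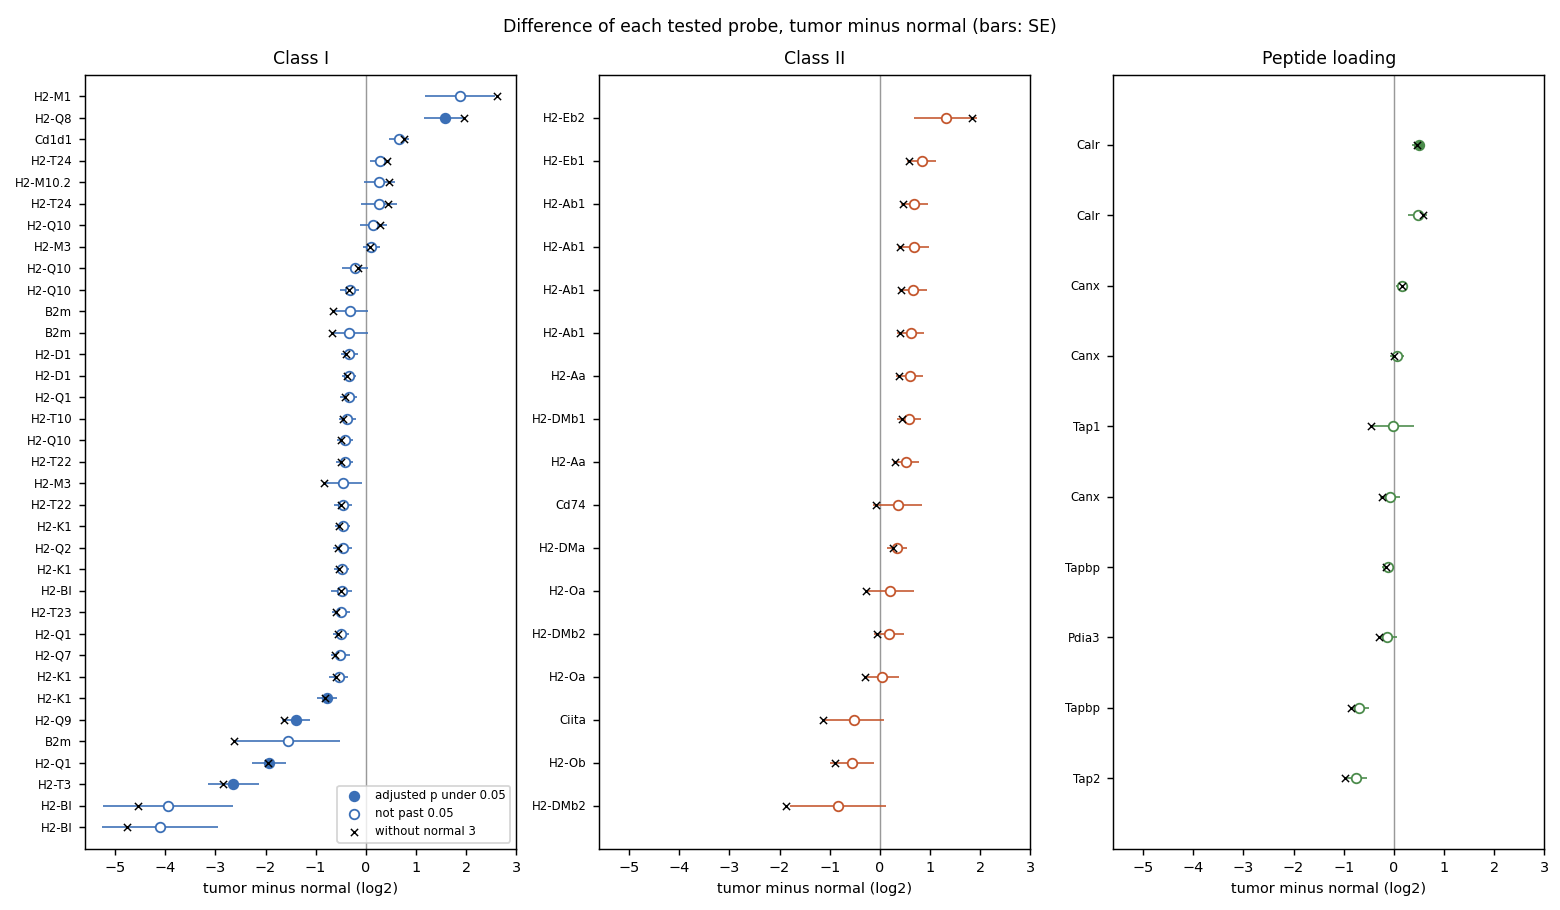
Difference (tumor minus normal, log2) of each tested class I, class II and peptide loading probe, 1 row per probe; bars are SE over 4 tumors and 4 normals, filled points have an adjusted p under 0.05 and crosses give the difference without normal 3. Most class I points lie below 0 and most class II points above it, and 6 points are filled.

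The classical class I heavy chains H2-K1 and H2-D1 had lower mean values in the tumors on all 6 of their probes, by 0.33 to 0.78, and 1 of the 6 passed the test. H2-K1 was measured by 4 probes on chromosome 17, and the files give no exon or UTR for a probe. The one that passed, A_52_P50496 (33609797 to 33609856 on mm8), was 14.10, 13.76, 14.27 and 14.61 in tumors 1 to 4 and 15.01, 14.81, 14.86 and 15.17 in normals 1 to 4. The tumors all lay below the normals, and the difference of -0.78 ± 0.20 is 1.71-fold lower (adjusted p = 0.0444, and 0.022 without normal 3). Within slides 1 and 2 it was -0.91 and -1.05.

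The brightest H2-K1 probe, A_51_P198434 (33606564 to 33606623), was 18.11, 17.81, 18.03 and 18.27 in the tumors and 18.47, 18.61, 18.31 and 18.69 in the normals. Here too the groups stayed apart, with tumor 4 just under normal 3. The difference of -0.46 ± 0.16 had an adjusted p of 0.0884, against 0.0261 without normal 3. The other 2 H2-K1 probes differed by -0.48 and -0.54, and passed without normal 3 (adjusted p = 0.0274 and 0.0428, against 0.0762 and 0.102 with all samples). H2-D1, the other classical heavy chain of the C57BL/6 haplotype, was 16.92, 16.87, 17.07 and 17.25 in the tumors and 17.28, 17.31, 17.16 and 17.67 in the normals on probe A_52_P313279 (34874240 to 34874299). Tumor 4 overlapped normal 3, and the difference of -0.33 ± 0.16 had an adjusted p of 0.193, against 0.0823 without normal 3. Its second probe differed by -0.34 ± 0.15 (adjusted p = 0.155).

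The promoters of these heavy chains are shown because their genes had lower values on every probe. The sequences are RefSeq's, assembly GRCm38.p6, 250 bases ending just before the annotated start and written 5′ to 3′ along the gene. H2-K1 has 2 annotated starts, and the window printed lies at chr17:34000334-34000583 on the minus strand, while that of H2-D1 lies at chr17:35262844-35263093 on the plus strand. Capitals mark matches, on either strand, to CCAAT (the Y box core), to TGACG (the X2 box core) and to an NF-kappaB core, and neighbouring matches run together.
H2-K1: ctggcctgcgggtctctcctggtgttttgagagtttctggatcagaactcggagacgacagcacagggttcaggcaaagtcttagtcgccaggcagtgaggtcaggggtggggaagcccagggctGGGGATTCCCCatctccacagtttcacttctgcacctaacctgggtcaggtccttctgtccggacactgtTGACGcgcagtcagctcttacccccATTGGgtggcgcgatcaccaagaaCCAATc
H2-D1: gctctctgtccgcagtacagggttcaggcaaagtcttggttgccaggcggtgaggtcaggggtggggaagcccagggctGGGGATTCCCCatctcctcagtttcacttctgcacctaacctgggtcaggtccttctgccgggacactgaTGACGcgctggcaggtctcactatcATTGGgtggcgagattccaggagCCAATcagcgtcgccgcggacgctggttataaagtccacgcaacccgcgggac
Both windows hold, in the same order, an NF-kappaB core, an X2 box core and 2 Y box cores, 1 on each strand. In textbook accounts the X and Y boxes bind the RFX, CREB and NF-Y factors, on which Ciita acts at class II genes and Nlrc5 at class I genes. Promoter windows were found for 33 of the 46 member genes, 38 windows in all. The Y box core stood in 33 of the 38, and in 11103 of all 32817 RefSeq windows of that length (33.8%). The X2 box core stood in 17 of the 38, and in 5825 of the 32817 (17.7%). For the NF-kappaB core these were 10 of the 38 and 5791 of the 32817 (17.6%). The X box core GCAACAG stood in 1 of the 38, and in 1465 of the 32817 (4.46%). The core of the interferon-stimulated response element stood in 3 of the 38, and in 974 of the 32817 (2.97%). These shares describe letters in a window and show no binding.

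The class I light chain and the lipid-presenting relative Cd1d1 differed in opposite directions from each other. B2m, on chromosome 2, was 16.31, 15.53, 15.86 and 16.12 in the tumors and 16.30, 16.77, 15.28 and 16.76 in the normals on its brighter probe A_51_P129012. Normals 2 and 4 lay above every tumor, normal 1 lay level with tumor 1, and normal 3 lay below every tumor. The difference was -0.32 ± 0.36 (adjusted p = 0.505), and without normal 3 it was -0.65 and passed the test (adjusted p = 0.0471). The second B2m probe, A_51_P129006, differed by -0.33 and, without normal 3, by -0.67 (adjusted p = 0.0357). Another probe, A_52_P105594, differed by -1.55 ± 1.05 (adjusted p = 0.284) and, without normal 3, by -2.63 (adjusted p = 0.00808). Cd1d1, which presents lipids to NKT cells and lies on chromosome 3, was 13.05, 12.57, 13.21 and 12.65 in the tumors and 12.18, 12.15, 12.50 and 11.97 in the normals. All tumors lay above all normals, and the difference of 0.67 ± 0.20 had an adjusted p of 0.0631, against 0.0185 without normal 3.

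Of the 6 calls, the 4 of largest size were in the non-classical class I genes of the Q and T regions, where 3 probes were lower and 1 was higher. H2-Q1 on probe A_52_P231729 (chromosome 17, 34933059 to 34933118 on mm8) was 14.21, 12.87, 13.12 and 14.28 in the tumors and 15.57, 15.42, 15.50 and 15.73 in the normals. The normals lay close together, normal 3 among them, while tumors 2 and 3 lay more than 1 unit below tumors 1 and 4. The difference of -1.93 ± 0.34 is 3.82-fold lower (adjusted p = 0.0201, and 0.00928 without normal 3), and it was -1.36 within slide 1 and -2.55 within slide 2. The other 2 probes with that name differed by -0.34 ± 0.17 and -0.50 ± 0.16 (adjusted p = 0.194 and 0.0725), and the last passed without normal 3 (adjusted p = 0.0245). Colonocyte markers moved the same way: their list means were also lowest in tumors 2 and 3, at 13.57 and 13.77, against 15.59 and 15.14 in tumors 1 and 4, and their part in the H2-Q1 result was not tested.

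H2-Q9 was 8.03, 7.74, 7.86 and 8.26 in the tumors and 9.39, 9.61, 8.63 and 9.82 in the normals. The groups did not overlap, normal 3 was the lowest normal, and the difference of -1.39 ± 0.27 is 2.62-fold lower (adjusted p = 0.0232, and 0.00184 without normal 3). H2-Q8 ran the other way, with 11.96, 11.43, 12.18 and 11.49 in the tumors and 10.26, 9.52, 11.36 and 9.64 in the normals. Normal 3 was the highest normal, just below tumor 2, and the difference of 1.57 ± 0.42 is 2.97-fold higher (adjusted p = 0.0468, and 0.00335 without normal 3). Within slides 1 and 2, H2-Q9 differed by -1.37 and -1.87, and H2-Q8 by 1.69 and 1.90. H2-Q2, H2-Q7 and the probe A_51_P496997 named H2-Q10 differed by -0.46 ± 0.18, -0.51 ± 0.19 and -0.42 ± 0.16, none of which passed (adjusted p = 0.124, 0.110 and 0.112), while all 3 passed without normal 3 (adjusted p = 0.0349, 0.0278 and 0.0334). The other probes named H2-Q10 differed by 0.15 ± 0.28, -0.21 ± 0.26 and -0.32 ± 0.19 (adjusted p = 0.687, 0.543 and 0.241 by limma). None of these passed without normal 3 (adjusted p = 0.410, 0.669 and 0.203 by limma). The Q region genes are near-identical copies, and H2-Q10 is known as a liver gene, so a probe named for one of them can also bind transcripts of others. Probe names within this family are uncertain. The called H2-Q9 probe lies at 35081885 to 35081944 on mm8, between the H2-Q10 probes that differed by 0.15 and -0.21, so its gene is in doubt.

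H2-T3, which encodes the thymus leukemia antigen, a class I-like protein of gut epithelium that binds CD8 alpha homodimers, was 5.51, 4.12, 3.72 and 5.20 in the tumors and 6.63, 7.64, 6.71 and 8.16 in the normals. Every tumor was below the detection limit of 5.59 and every normal above it. By that limit the tumors have only a bound, and the level was at least 3.25-fold lower in them (adjusted p = 0.0224, and 0.00826 without normal 3, by limma). This probe reached the filter through the normals alone, where it is high, so its call is no support for the class. With no filter its adjusted p was 0.0316 and with a filter on the mean of all 8 samples 0.0217. The detection limit is uneven, since normal 1, at 6.63, lay below the 7.70 that marked background in the scanner file that matches it. Tumor 1, at 5.51, lay above the 4.50 of its own, where the probe was marked well above background. Relative to the 75th percentile the probe was at -5.21 in the scanner file that matches tumor 1 and -5.26 in that of normal 1. For these samples the bound does not hold. Of the other T region genes, H2-T10 differed by -0.37 ± 0.17, H2-T23, which encodes Qa-1, by -0.49 ± 0.18, and H2-T22 by -0.46 ± 0.18 and -0.42 ± 0.17. Their adjusted p values were 0.173, 0.110, 0.120 and 0.132, and H2-T23 and the second H2-T22 probe passed without normal 3 (adjusted p = 0.0224 and 0.0442). The H2-T24 probes differed by 0.28 ± 0.20 and 0.27 ± 0.36 (adjusted p = 0.321 and 0.581). Within slides 1 and 2, H2-T3 differed by -1.12 and -3.52.

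H2-Bl, a class I gene of the same stretch of the locus, was 5.45, 4.34, 3.47 and 4.38 in the tumors and 7.23, 8.12, 6.55 and 12.14 in the normals on probe A_52_P560113. All 4 tumors were below the detection limit. By that limit they have only a bound, and the level was at least 7.59-fold lower in the tumors (adjusted p = 0.0556, and 0.0161 without normal 3, by limma). As for H2-T3, tumor 1 lay above the 4.50 and normal 1 below the 7.70 that marked background in the scanner files that match them. The bound rests on normal 4 and was 3.28-fold without it, against 11.9-fold without normal 3, and this probe too reached the filter through the normals alone. A second probe, A_51_P247114, was 5.75, 4.00, 4.23 and 7.55 in the tumors and 8.17, 8.69, 7.52 and 12.92 in the normals (adjusted p = 0.0838), and passed with the replicate number as a block (adjusted p = 0.0327) and without normal 3 (adjusted p = 0.0275). The remaining one, A_52_P350519, differed by -0.48 ± 0.22 (adjusted p = 0.163), so the probes of this gene differ widely in size. Of the M region genes, H2-M3, which presents formylated peptides, differed by 0.11 ± 0.17 and -0.45 ± 0.37, H2-M10.2 by 0.27 ± 0.31 and H2-M1 by 1.88 ± 0.70, none of them past the test. Without normal 3, H2-M1 was higher by 2.61 (adjusted p = 0.00266 by limma) and the second H2-M3 probe differed by -0.83 (adjusted p = 0.00975 by limma). H2-M1 was at 4.76, 3.54 and 3.78 in normals 1, 2 and 4, all below the detection limit, and at 6.91 in normal 3. Without normal 3 it thus reached the limit through the tumors alone, where it is high, so its call is no support for the class.

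Over all class I probes, 27 of the 35 differences were negative, and 5 (14.3%) passed, 4 lower and 1 higher, beside 13.4% of all probes. Leaving aside the 2 that reached the filter through the normals alone, 3 of 33 were lower and 1 was higher (12.1%), with a median difference of -0.42. Those 2 also count among the 27 negative differences and the 10, 19 and 23 probes given below, so the filter partly fixed these counts. Groups that did not overlap, with the tumors below, were found for 10 of the 35 probes (28.6%), beside 12.6% of all probes, and with the tumors above for 2 (5.71%), beside 10.2%. Among the 21 class I probes with a mean value of 12 or more, 19 differences were negative, with a median of -0.46. Without normal 3, 19 of the 35 (54.3%) were lower and 3 were higher, beside 24.3% lower and 27.4% higher of all probes. H2-M1, which then reached the limit through the tumors alone, is among these 3 and among the 4 given next. The tumors then lay below the 3 other normals for 23 probes (65.7%), beside 26.5% of all probes, and above them for 4 (11.4%), beside 29.1%. With the replicate number as a block, 5 class I probes were lower and 1 was higher, beside 7.39% and 3.92% of all probes. The count rests on the samples: it was 0 without any single one of tumor 2, tumor 3, normal 1, normal 2 or normal 4, it was 2 without tumor 1 and 4 without tumor 4, all lower. The number of calls over all probes was 344 without tumor 2, 507 without normal 1, 618 without normal 2, 964 without tumor 1 and 2430 without tumor 4.

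**Figure D2:**
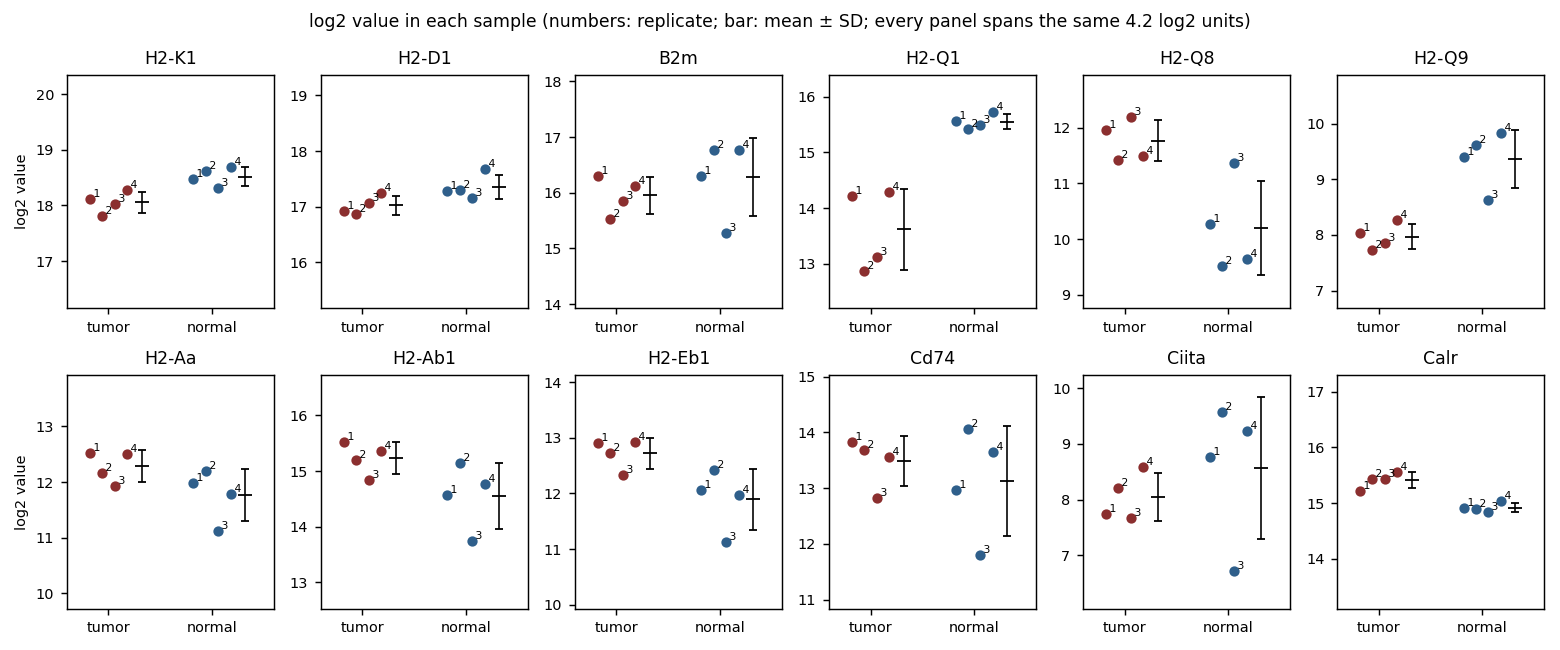
Log2 value of 12 member genes in each tumor (left) and each normal (right), numbered by replicate, with the mean ± SD beside the points; the panels span the same height but have different origins, so only heights within a panel compare. Tumors lie below normals for H2-K1, H2-Q1 and H2-Q9 and above them for H2-Q8 and Calr, and normal 3 is the lowest normal for every gene shown but H2-Q1 and H2-Q8.

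The class II A and E chains had higher mean values in the tumors on all their tested probes. Yet 0 of the 17 class II probes passed the test in either direction by limma, as was also the case with limma's trended and robust variance. By limma, 4 of the 17 had an unadjusted p under 0.05. The classical chains H2-Aa, H2-Ab1 and H2-Eb1 were measured by 7 probes, with differences of 0.52 to 0.83. H2-Aa, the I-A alpha chain, was 12.53, 12.16, 11.93 and 12.51 in the tumors and 11.97, 12.19, 11.12 and 11.78 in the normals (chromosome 17, 33892022 to 33892081 on mm8). Normals 1 and 2 lay inside the range of the tumors, and normal 3 was the lowest of the 8 samples. The difference of 0.52 ± 0.26 had an adjusted p of 0.198, with 0.30 without normal 3 (adjusted p = 0.241). It was 0.56 within slide 1 and -0.03 within slide 2.

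H2-Ab1, the I-A beta chain, was 15.52, 15.20, 14.84 and 15.36 in the tumors and 14.57, 15.15, 13.74 and 14.77 in the normals on its brightest probe (33877309 to 33877368). Its difference was 0.67 ± 0.31 (adjusted p = 0.174) and 0.40 without normal 3 (adjusted p = 0.157), and normal 2 again lay inside the range of the tumors. H2-Eb1, the E beta chain, was 12.91, 12.72, 12.33 and 12.93 in the tumors and 12.06, 12.42, 11.13 and 11.96 in the normals. The description of this probe in the files names an I-A beta chain, so its gene is uncertain. Its groups overlapped through normal 2, and the difference of 0.83 ± 0.29 (adjusted p = 0.0973) was 0.58 without normal 3 and passed there (adjusted p = 0.0491). H2-Ea, the E alpha chain, was at 3.14 to 3.39 in the tumors and 3.25 to 4.08 in the normals, all below the detection limit. C57BL/6 mice are known to carry a deletion in the H2-Ea promoter and make no E alpha chain. One H2-Eb2 probe reached the limit in 5 samples, the 4 tumors and normal 3. It differed by 1.32 ± 0.63 (adjusted p = 0.183, and 0.0197 without normal 3, by limma). Normals 1, 2 and 4 were at 3.38, 5.21 and 5.16, so without normal 3 it reached the limit through the tumors alone.

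The promoters of H2-Aa and H2-Eb1 are printed for comparison with those of H2-K1 and H2-D1. H2-Aa lies at chr17:34287824-34288073 on the minus strand and H2-Eb1 at chr17:34305617-34305866 on the plus strand of GRCm38.p6, with capitals as above.
H2-Aa: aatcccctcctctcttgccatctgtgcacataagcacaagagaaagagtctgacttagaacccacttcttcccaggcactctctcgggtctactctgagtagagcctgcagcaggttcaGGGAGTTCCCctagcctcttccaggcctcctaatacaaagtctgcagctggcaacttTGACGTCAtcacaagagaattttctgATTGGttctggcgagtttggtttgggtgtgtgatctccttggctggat
H2-Eb1: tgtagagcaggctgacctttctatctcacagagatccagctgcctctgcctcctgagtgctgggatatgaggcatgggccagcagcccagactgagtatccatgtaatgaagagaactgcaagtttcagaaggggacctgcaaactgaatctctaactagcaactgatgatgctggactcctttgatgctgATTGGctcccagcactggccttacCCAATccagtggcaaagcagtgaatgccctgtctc
In H2-Aa the X2 box core stood on both strands, at 74 and 71 bases before the start, and 1 Y box core stood at 48. The H2-Eb1 window held 2 Y box cores, at 59 and 35 bases before the start, and neither the X2 box core nor the NF-kappaB core.

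The chains that edit class II peptides differed in both directions, and none passed the test. H2-DMa and H2-DMb1, the peptide exchange factor, differed by 0.34 ± 0.19 and 0.58 ± 0.23 (adjusted p = 0.228 and 0.135). H2-DMb2 differed by 0.18 ± 0.31 on its brighter probe and by -0.83 ± 0.96 on its dimmer one, where normal 3, at 4.22, was the lowest of the 8 samples and below the detection limit. Without normal 3 the dimmer probe differed by -1.87 and passed (adjusted p = 0.00752). Its brighter probe then differed by -0.07. H2-Oa and H2-Ob, the B cell partners that restrain H2-DM, differed by 0.20 ± 0.48 and -0.55 ± 0.44 (adjusted p = 0.762 and 0.350), and by -0.29 and -0.90 without normal 3. H2-Oa was 9.51, 8.60, 9.19 and 9.39 in the tumors and 9.54, 9.57, 7.51 and 9.27 in the normals, so that normal 3 alone lay below all other samples.

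Cd74 was 13.83, 13.69, 12.83 and 13.57 in the tumors and 12.97, 14.07, 11.80 and 13.65 in the normals. Normal 2 was the highest sample and normal 3 the lowest, and the difference of 0.36 ± 0.49 (adjusted p = 0.588) was -0.08 without normal 3. Ciita, on chromosome 16 at 10439788 to 10439847 of mm8, was 7.74, 8.21, 7.67 and 8.59 in the tumors and 8.76, 9.57, 6.72 and 9.24 in the normals. Normals 1, 2 and 4 all lay above the 4 tumors, and normal 3 lay below them. The difference was -0.52 ± 0.60 (adjusted p = 0.523), and without normal 3 Ciita fell by 1.13 (adjusted p = 0.0192), beside 24.3% of all probes that fell in that fit. In that fit 2 class II probes were lower, Ciita and the dimmer H2-DMb2 probe, and 2 were higher, H2-Eb1 and H2-Eb2. Of all probes 24.3% were lower and 27.4% higher there. H2-Eb2 then reached the detection limit through the tumors alone, so its call is no support for the class.

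**Figure D3:**
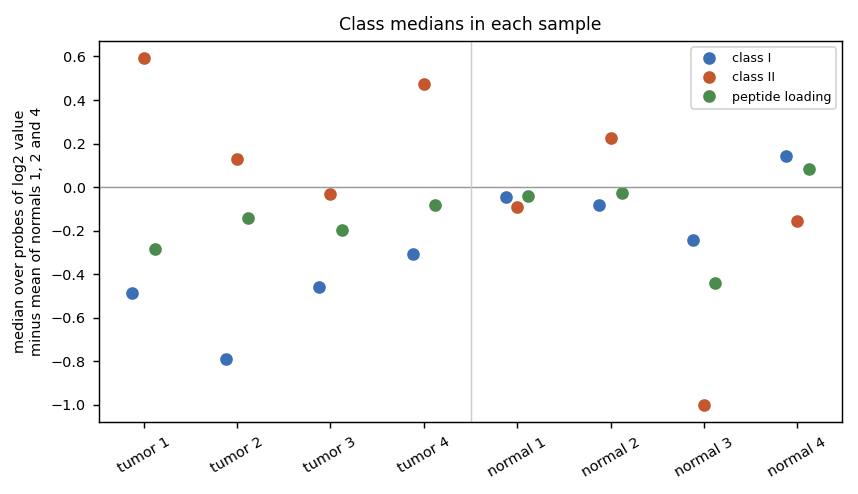
Median over the tested probes of each class of the log2 value minus the mean of normals 1, 2 and 4, in each tumor (left) and each normal (right). Class I lies at -0.79 to -0.31 in the tumors, class II at -0.03 to 0.59 in the tumors, and normal 3 is at -0.24 for class I and -1.0 for class II.

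Within the loading machinery, calreticulin rose and the other members gave no call. Calr, the lectin chaperone of the loading complex, was 15.22, 15.43, 15.44 and 15.57 in the tumors and 14.91, 14.89, 14.84 and 15.03 in the normals on probe A_51_P416419 (chromosome 8, 87732398 to 87732457 on mm8). Tumors and normals stayed apart, and the difference of 0.49 ± 0.13 is 1.41-fold higher (adjusted p = 0.0467), with 0.0276 without normal 3 and 0.0732 with the replicate number as a block, which ends the call. Leaving out any 1 of the other 7 samples ended it too, with adjusted p of 0.0732 to 0.130. Its second probe differed by 0.47 ± 0.18 (adjusted p = 0.124, and 0.031 without normal 3). Within slides 1 and 2 the first probe differed by 0.30 and 0.54. The call is 1 of 10 loading probes, beside 13.4% of all probes, and without normal 3 both Calr probes were higher and Tap2 and 1 Tapbp probe were lower, beside 27.4% and 24.3% of all probes.

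Tap2, a subunit of the peptide transporter, was 10.88 to 11.05 in the tumors and 11.89, 11.91, 11.07 and 12.02 in the normals. Normals 1, 2 and 4 lay well above the highest tumor and normal 3 just above it, and the difference of -0.75 ± 0.22 had an adjusted p of 0.0638, against 0.00257 without normal 3. Tap1, its partner, was 9.88, 10.16, 10.60 and 10.68 in the tumors and 10.52, 10.77, 9.08 and 11.07 in the normals, a difference of -0.03 ± 0.44 (adjusted p = 0.966), and its sign turned on which sample was left out (-0.46 to 0.21). Tapbp, which bridges transporter and heavy chain, differed by -0.69 ± 0.19 on one probe (adjusted p = 0.051, and 0.00371 without normal 3) and by -0.12 ± 0.12 on the other. Canx differed by 0.16 ± 0.12 on its brightest probe and Pdia3, the oxidoreductase of the complex, by -0.13 ± 0.19. Erap1, which trims peptides, had no probe under that name. The probe A_52_P389595, named Arts1 in the files and Erap1 by RefSeq, is no member and differed by -0.20 ± 0.19 (adjusted p = 0.435). The 2 locus genes without a role in presentation, H2-Ke2 (Pfdn6 in RefSeq, a prefoldin subunit) and H2-Ke6, differed by 0.31 ± 0.15 and -0.42 ± 0.14 (adjusted p = 0.182 and 0.0933).

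Class II against class I was also compared within each sample, as the difference of 2 log2 values, for 3 pairs of genes by an exact 2-sided permutation test over samples. The smallest p this design gives is 0.0286. H2-Aa minus H2-K1 was -5.58, -5.66, -6.10 and -5.76 in tumors 1 to 4 and -6.49, -6.42, -7.19 and -6.90 in normals 1 to 4. Levels of 2 probes are not on 1 scale, so only the contrast between groups counts. Tumors and normals did not overlap, and the tumors were higher by 0.98 (exact permutation p = 0.0286, 0.0857 adjusted over the 3 pairs). Cd74 minus B2m was higher in the tumors by 0.68 (exact permutation p = 0.0571, adjusted 0.0857). Ciita minus Tap1 differed by -0.49 (exact permutation p = 0.229, adjusted 0.229). None of the 3 pairs passed after adjustment, and without normal 3 the differences were 0.83, 0.57 and -0.68.

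Genes that control or accompany presentation were read from lists, each gene by its brightest probe. In the interferon gamma axis 1 of 11 tested genes passed, beside 13.4% of all probes: Socs1, the feedback inhibitor of the pathway, which was 12.97, 12.66, 12.77 and 11.88 in the tumors and 11.24, 11.04, 11.44 and 11.01 in the normals and rose by 1.39 ± 0.25 (adjusted p = 0.0208). Irf1 and Ifngr1 differed by -0.42 ± 0.31 and -0.63 ± 0.18 and did not pass (adjusted p = 0.330 and 0.0545), though Ifngr1 passed without normal 3 (adjusted p = 0.0113). Of the immunoproteasome and its activator 0 of 5 genes passed by limma, with Psmb8 at 0.38 ± 0.29 and Psmb9 at 0.22 ± 0.21. Of the class II promoter factors 0 of 9 passed, with Rfx5 at -0.34 ± 0.54. Nlrc5 was not analysed here. Without normal 3 the higher and lower calls in these lists were 2 and 3 of 11, 1 and 0 of 5, and 2 and 1 of 9, beside 27.4% and 24.3% of all probes.

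In endosomal processing 2 of 11 genes rose and 1 fell, beside 5.62% higher and 7.83% lower of all probes. Without normal 3 the counts were 4 and 1, beside 27.4% and 24.3% of all probes. Legumain (Lgmn), an asparaginyl endopeptidase, rose by 1.15 ± 0.16 (adjusted p = 0.0151) and cathepsin D (Ctsd) by 0.89 ± 0.20 (adjusted p = 0.03, and 0.0567 with the replicate block, which ends the call). Cathepsin S (Ctss), which cleaves the invariant chain, was 17.15, 16.77, 16.74 and 17.22 in the tumors and 17.77, 17.96, 17.33 and 18.04 in the normals and fell by 0.80 (SE 0.21, adjusted p = 0.0442). Among class I-like genes and their receptors 1 of 9 rose and 2 fell, beside the same 5.62% and 7.83%. Without normal 3 the counts were 2 and 2, beside 27.4% and 24.3% of all probes. The endothelial protein C receptor Procr rose by 1.57 ± 0.25 (adjusted p = 0.0171), while the NKG2D ligands Raet1e and Raet1a differed by -1.53 ± 0.22 and -1.36 ± 0.17 and fell (adjusted p = 0.0151 and 0.013). Of 5 costimulatory genes 1 rose and 1 fell, beside the same 5.62% and 7.83%. Cd40 rose by 1.63 ± 0.22 (adjusted p = 0.0136 by limma). Icosl, at -0.74 ± 0.19, fell (adjusted p = 0.0435, and 0.0724 with the replicate block, by limma). Of 4 T cell co-receptors none passed by limma, with Cd4 at 0.87 ± 0.46 and Cd8a at 0.40 ± 0.38, and Cd4 passed without normal 3 (adjusted p = 0.0257). In that fit 2 costimulatory genes were higher and 1 was lower, beside 27.4% and 24.3% of all probes.

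Markers of the cells that bear class II molecules stand here beside the class II values. Of 11 macrophage and monocyte markers 6 rose, beside 5.62% of all probes, among them Cd68 by 1.61 ± 0.16 and C1qa by 1.83 ± 0.22 (adjusted p = 0.0114 and 0.013). Without normal 3, 7 were higher, beside 27.4% of all probes, and with the replicate block 5 were, beside 3.92%. Their list mean was 11.95 to 12.22 in the tumors, 10.80 to 11.60 in normals 1, 2 and 4 and 10.09 in normal 3. Of 8 dendritic cell markers 1 rose, beside 5.62% of all probes: Batf3, by 0.85 ± 0.20 (adjusted p = 0.0344 by limma). The list means were 8.43 to 8.54 in the tumors, 7.49 to 7.99 in normals 1, 2 and 4 and 8.13 in normal 3. Clec9a was below the detection limit in all 8 samples. Without normal 3 the dendritic count was 3, beside 27.4% of all probes. Of 9 B cell markers none passed by limma. Without normal 3, 2 were higher and 2 lower, beside 27.4% and 24.3% of all probes. The B cell list mean was 7.96 to 8.74 in the tumors, 8.53 to 8.73 in normals 1, 2 and 4 and 7.49 in normal 3. Normal 3 was the lowest normal for all 3 classical class II genes and for Cd74 and Ciita. On the probes plotted above it was so too for B2m, H2-K1, H2-D1, H2-Q9 and Calr, so this was not particular to class II. Normal 3 was also the lowest normal for the macrophage and B cell lists and the highest normal for the dendritic cell list.

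Of 7 T cell markers 3 rose, beside 5.62% of all probes, and 5 without normal 3 (beside 27.4%), with list means of 9.93 to 10.44 in the tumors, 8.63 to 9.31 in normals 1, 2 and 4 and 9.51 in normal 3. Of 8 epithelial markers 1 fell, Krt20, by 0.90 (SE 0.23, adjusted p = 0.0404), beside 7.83% of all probes, and the list mean was 16.56 to 16.83 in the tumors and 17.04 to 17.22 in the normals, the groups apart. Without normal 3, 5 of the 8 were lower, beside 24.3% of all probes, and 1 was higher, beside 27.4%. The higher one was Krt18, which differed by 0.47 ± 0.15 with all samples (adjusted p = 0.0703, and 0.0191 without normal 3, by limma). The class I medians and the epithelial means were both lower in every tumor than in any normal. The part of cell composition in the class I and class II values was not tested.

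**Figure D4:**
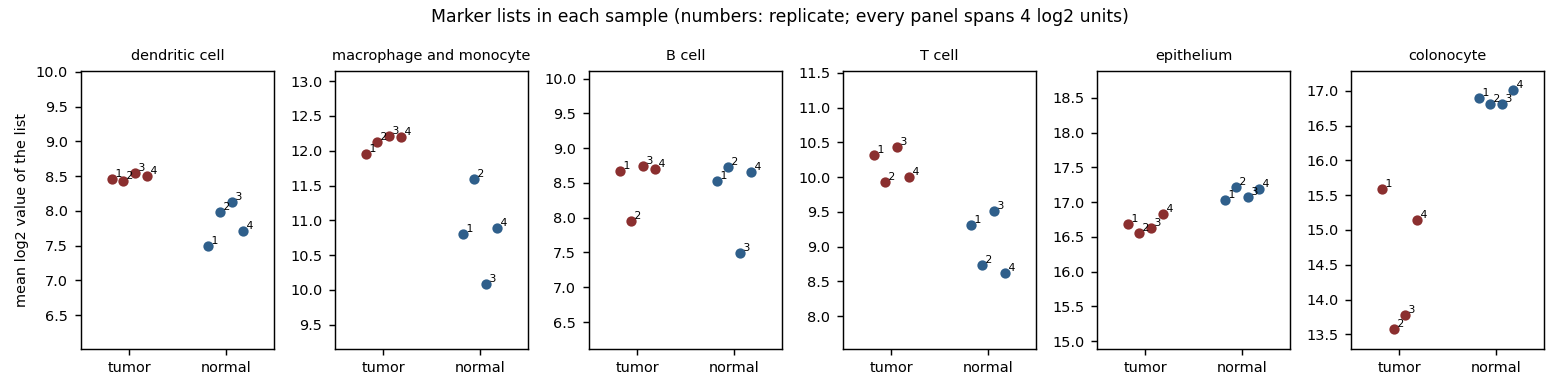
Mean log2 value of 6 cell type marker lists in each tumor (left) and each normal (right), numbered by replicate; all panels span the same height with different origins. The macrophage, dendritic cell and T cell lists are higher in every tumor than in any normal, the epithelium and colonocyte lists are lower, and the B cell list overlaps with normal 3 lowest.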

How the data were processed

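RNA from 4 colon tumors and 4 normal colon samples was labelled with Cy3 and hybridised to one-colour Agilent arrays, per the labels. The deposited scanner files hold intensity values from Feature Extraction, version 9.5.1.1 per the file headers and 10.1.1.1 per the submitters' processing notes, with probe positions on mm8. The authors' deposited value table is log2 and quantile-normalised: both were found from its values, since no label states them. The table was used because the scanner files and columns disagree on sample identity. The files mark 55.6% to 82.8% of probes as well above background, and the number of arrays limits the precision.

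The detection limit came from the 4 columns that a scanner file matches: in each, the level under which 95% of the probes marked as background lie was found (4.50 to 7.70), and the median, 5.59, was used. Each probe was tested 2-sided by limma (lmFit, eBayes; limma 3.58.1, R 4.3.3), a step checked on simulated data. Samples with the same replicate number deviated together (correlations of 0.227, 0.390, 0.565 and 0.381), but unlike numbers reached 0.392 and tumors 1 and 4 correlated best with a normal of another number. The number was also fitted as a block. The labels do not tie numbers to litters. Alternatives were the filter, the centring, 1 probe per gene, the scanner values, the block and each sample left out. Every member could be named, with at most 4 called genes per list and direction, and the members, lists and tests were chosen with earlier results of these data known. Sequences came from RefSeq's GRCm38.p6 promoters. The values of 1 list gene are not reported here.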

Additional observations from a re-analysis of the deposited data

Results flagged for a closer look

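Among 80 groups of 4 samples examined (the tested probe that stands for each member gene and the called probes, tumors and normals apart), 4 held a sample that stood far from the others by Dixon's test, and chance gives about 1 in 20. For H2-T22 (probe A_51_P432544) tumor 2 was lowest, at 12.59, against 13.15 to 13.21 in the other tumors. For H2-Oa (probe A_51_P449325) normal 3 was lowest, at 7.51, against 9.27 to 9.57 in the other normals. For Tap2 normal 3 was also lowest, at 11.07, against 11.89 to 12.02. For Canx (probe A_52_P337679) normal 4 was highest, at 15.71, against 15.65 to 15.66.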

How the results depend on the processing

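With the replicate block, 3605 probes passed in place of 4285, 1 class I probe was higher and 5 were lower, no class II probe passed, and Calr was lost, which left 0 loading probes. The block changed no other call of a named member than Calr and H2-Bl, and among the list genes named it ended those of Icosl and Ctsd. The blocked pair differences were 0.68, 0.98 and -0.49, each with an exact sign-flip p of 0.125, the smallest possible. Leaving out 1 sample at a time gave 1 to 16474 calls over all probes, 0 to 3 class I higher, 0 to 19 class I lower, 0 to 2 class II higher, 0 to 2 class II lower, 0 to 2 loading higher and 0 to 2 loading lower. Pair differences then ran from 0.47 to 0.86 for Cd74 minus B2m, 0.83 to 1.09 for H2-Aa minus H2-K1 and -0.68 to -0.27 for Ciita minus Tap1. Differences that turned sign when 1 sample was left out ran from -0.083 to 0.67 for Cd74, -0.066 to 0.34 for H2-DMb2, -0.29 to 0.40 for H2-Oa and -0.46 to 0.21 for Tap1.

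Without the filter on low values no class I probe was higher and no loading probe passed (0 each), with 3057 of 41174 called. With 1 probe per gene 2 class I probes were lower, with the filter on the mean 1 loading probe was lower, and with trended and robust variance 2 class I probes were higher, 9 lower and 2 loading probes lower.

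The scanner values taken under the labels of their own files gave 0 calls over all probes and for each class, with 632 at an unadjusted p under 0.05 (462 with a slide block, chosen after seeing the data, and 734 after normexp). On the 4 traced columns with a slide block there were also 0 calls, with 11381 at an unadjusted p under 0.05, and H2-DMb2 and H2-Oa were -0.12 and -0.50. As filed, relative to the 75th percentile, with or without the slide block, B2m was 0.62, H2-D1 0.32, H2-K1 0.32 and 0.19 on its 2 named probes, H2-Q1 1.12, H2-Q9 0.53, H2-T3 4.04, Tap1 0.89, Tap2 0.26, Tapbp 0.20, Ciita 1.50, H2-Ob 0.40 and Cd1d1 -0.21, each opposite in sign to the value table. After normexp and quantile normalisation they were 0.56 for B2m, 0.22 for H2-D1, 0.16 and 0.19 for H2-K1, 1.09 for H2-Q1, 0.38 for H2-Q9, 3.03 for H2-T3, 0.81 for Tap1, 0.24 for Tap2, 0.18 for Tapbp, 1.20 for Ciita, 0.11 for H2-Ob and -0.18 for Cd1d1. Ciita minus Tap1 was 0.61 as filed. Of 25 named probes 13 turned sign as filed and 12 did not: H2-Aa, H2-Ab1, H2-Eb1 and Cd74 were 1.46, 1.44, 1.31 and 1.46, H2-Q8 1.14 and Calr 0.26. These fits hold other arrays than the value table, among them the 4 files with small intestine markers, so the 13 directions depend on which labels are right. Probes near the detection limit, among them H2-T3, H2-Bl, H2-M1, H2-Eb2 and H2-Ob, are the least certain.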

Other observations

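The 4 scanner files that match no column, filed under normal 1 and tumors 2, 3 and 4, held other levels of the presentation genes than the 4 that match one. Relative to each array's 75th percentile, H2-Aa was at 3.34 to 3.53 in the unmatched files and 0.63 to 1.11 in the matched ones, and Cd74 at 4.55 to 5.17 and 1.69 to 2.55. Ciita was at -0.74 to 0.93 in the unmatched files and -3.21 to -2.02 in the matched ones. H2-T3, the thymus leukemia antigen gene, was at 1.0 to 1.86 in the unmatched files and -7.50 to -4.53 in the matched ones. H2-K1 overlapped, at 7.21 to 7.64 in the unmatched files and 6.44 to 7.37 in the matched ones. Small intestine markers were at 3.07 to 5.59 in the unmatched files and -3.04 to -0.69 in the matched ones (mean of 6 genes), and colonocyte markers at -0.22 to 1.16 and 2.17 to 5.77 (mean of 5 genes), and the part of gut region in these levels was not tested. These files are not replicates of a group, and no test was made.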
